A study of Arabidopsis thaliana with 12 samples.

Results

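The comparison described here set the elongation zone of roots of the line 35S::UPB1-3YFP #2 against the elongation zone of upb1-1 roots, and the members were the 4 arrays of those groups out of 12 arrays in the series, chosen by their titles alone. Both lines are Arabidopsis thaliana of the Columbia-0 ecotype, and both carry the upb1-1 mutation. The second line also carries a transgene that joins UPB1 to YFP behind the 35S promoter, which is active in most root tissues, and it is called OX-labelled here. Its labels place it in the upb1-1 background, so the contrast asks what the transgene changes in a plant mutant for UPB1. Seedlings were 6 days old on standard Murashige and Skoog medium with sucrose, about 60 roots were pooled for each replicate, and the zones were cut apart by razor under the microscope. Each group had 2 biological replicates on Affymetrix ATH1 arrays after 2 cycles of RNA amplification. The transgenic line is 1 line, so effects of its insertion site cannot be told apart from those of the transgene. The other 8 arrays, of Columbia-0 (Col-0) in both zones and of the same lines in the meristematic zone, served for the estimate of spread and as reference values.

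UPBEAT1 (UPB1) encodes a basic helix-loop-helix transcription factor that acts in the root near the place where cells stop dividing and begin to elongate. It is known to repress genes of class III peroxidases, secreted enzymes that use or produce reactive oxygen species in the cell wall and can loosen or stiffen it. The balance between superoxide in the meristem and hydrogen peroxide in the elongating cells is known to set where that transition lies. Young epidermal cells that are about to form root hairs have their own sets of wall-loosening enzymes and peroxidases.

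The signal of UPB1 itself was 11.9 and 15.6 on the upb1-1 arrays of the elongation zone, 53.6 and 35.3 on the OX-labelled arrays and 1379 and 1233 on the Col-0 arrays. These OX-labelled arrays lay above upb1-1 and far below Col-0, with no overlap between any of these groups. The difference between OX-labelled and upb1-1 was 1.01 log2 units (SE 0.26, adjusted p = 0.0113), and it did not pass without OX-labelled replicate 1 (0.79, adjusted p = 0.101). Which part of the transcript the probe set covers was not analysed, so whether its signal reports the transgene is not known. The signal below Col-0 therefore does not settle whether the line overexpresses UPB1, and directions below belong to the line as labelled. The zone label was checked with AUR1, a mitotic kinase: its signal was 142 and 87.6 on the elongation arrays of upb1-1 and 363 and 377 on its meristematic arrays. In the OX-labelled line the same gene gave 148 and 205 in the elongation zone and 723 and 699.9 in the meristematic zone, so the elongation samples of both lines were poorer in this marker.

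Of 22746 probe sets that are not controls, 15834 passed the filter on low signal and were tested. Between the OX-labelled and the upb1-1 elongation zone 3828 of them (24.2%) passed at an adjusted p below 0.05, of which 1830 (11.6%) were higher and 1998 (12.6%) lower in the OX-labelled line. Large changes were mostly falls. Among the probe sets that passed, 1173 fell and 544 rose by at least 1 log2 unit, 274 fell and 25 rose by at least 2, and 79 fell and 1 rose by at least 3. The median change over all tested probe sets was 0.07 log2 units, and 95% of all changes lay between -1.74 and 1.11. The 2 arrays of 1 line did not overlap with those of the other in 58.3% of all tested probe sets, so a lack of overlap in a single gene is no result by itself. Differences are given as OX-labelled minus upb1-1 on the log2(signal + 16) scale, which understates changes of dim genes, and signals are given for replicates 1 and 2 in that order. In whole tissue, fewer cells of a type and less RNA per cell cannot be told apart, and this holds for all results below.

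The 2 replicates differed more in upb1-1, with a standard deviation of 0.36 log2 units over all tested probe sets, than in the OX-labelled line, with 0.29. Replicate 2 of upb1-1 lay farther from the OX-labelled arrays than replicate 1: among the 1830 probe sets that rose, replicate 2 was below replicate 1 in 1535 (83.9%), against 54.0% of all tested probe sets. Without upb1-1 replicate 2 the counts were 706 higher and 1052 lower, and without upb1-1 replicate 1 they were 2964 higher and 2357 lower. Without OX-labelled replicate 1 the test gave 1008 rises, and without OX-labelled replicate 2 it gave 1018. In total 475 rises and 894 falls were called whichever of the 4 arrays was left out, among them 268 of the 274 falls and 24 of the 25 rises of at least 2 log2 units. In such a repeat the lone array of a group is assumed to vary like the arrays of the other groups. Markers of dividing cells differed in the same way. The summed signal of 4 mitotic genes was 249.8 and 153 in upb1-1 replicates 1 and 2 and 277 and 308 in the OX-labelled line, and the part of meristematic cells in the results was not tested. The ratio of 3′ to 5′ control probe sets, a sign of RNA quality and amplification, was alike in both groups, at 4.12 and 3.96 log2 units in upb1-1 and 3.87 and 4.08 in the OX-labelled line.

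**Figure D1:**
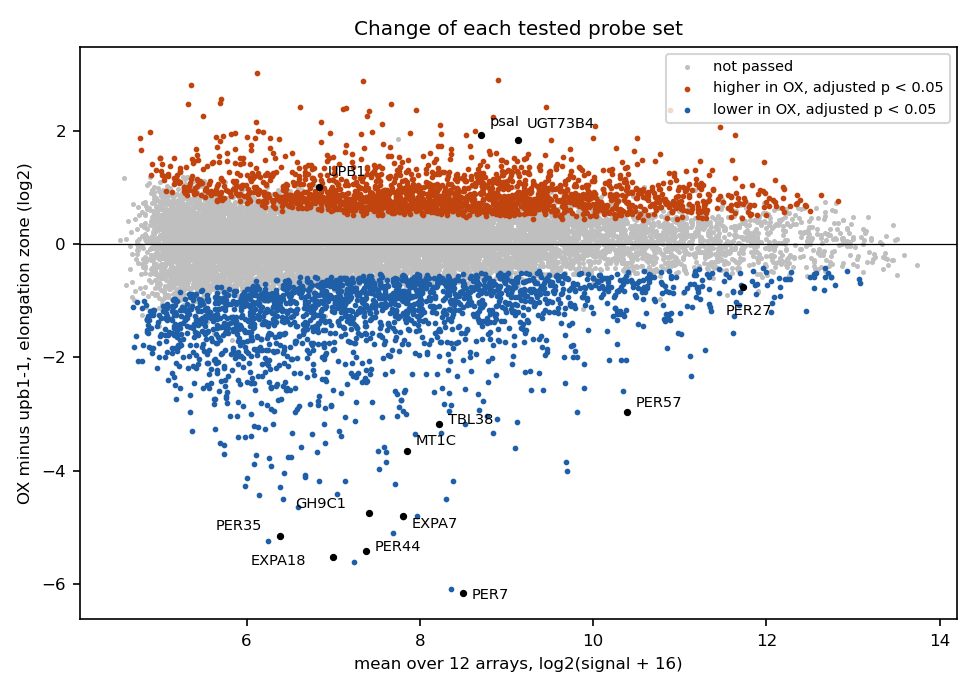
Change of each of the 15834 tested probe sets between the OX-labelled and the upb1-1 elongation zone (vertical axis, log2) against its mean log2(signal + 16) over the 12 arrays (horizontal axis). Each point is 1 probe set, coloured where it passed at an adjusted p below 0.05, and the falls reach beyond -6 while only 1 rise exceeds 3.

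Class III peroxidase genes were among the deepest falls in the OX-labelled elongation zone, though fewer than all of the tested members passed. Of 73 genes in the family, 55 have a named probe set here and 33 passed the filter on low signal; 15 of the 33 fell (12.6% of all tested probe sets did), none rose (11.6% of all did), and 18 did not pass. The median change of the 33 was -0.66 log2 units, against 0.07 for all tested probe sets, with a range from -6.17 to 0.63, and 22 changes were below 0 and 11 above. The gene table gives mostly locus names for this family, and the PER numbers used here follow the customary numbering of the family. Because a gene that is bright in 1 group only can pass the filter through that group, these counts describe the genes measured and not the family. Leaving out 1 array at a time gave 11 to 14 falls, and none or 1 rise, and 4 of the 15 calls, described below, were lost when single arrays were left out.

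The steepest fall of a probe set with 1 named gene was that of PER7. Its signal was 3127 and 5553 on the upb1-1 arrays and 40.3 and 44.4 on the OX-labelled arrays, a ratio of means of 103. The 2 groups were far apart, and Col-0 lay between them at 210.3 and 471. The change was -6.17 log2 units (SE 0.30, adjusted p = 1.22e-08). PER44, a peroxidase of root hair cells, gave 779 and 1004 against 9.02 and 1.83, with Col-0 at 51 and 98.4 (change -5.41, adjusted p = 1.22e-08). On the OX-labelled arrays this gene was near the bottom of the signal scale. PER35 gave 548 and 903 in upb1-1 and 2.18 and 6.60 in the OX-labelled line, a change of -5.15 (adjusted p = 1.91e-08). Here Col-0, at 2.08 and 8.36, was as low as the OX-labelled line, so the upb1-1 arrays alone were high.

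PER72, an enzyme known to take part in lignin formation, gave 549 and 183 in upb1-1 and 1.16 and 19.6 in the OX-labelled line (change -3.76, SE 0.41, adjusted p = 1.94e-05). The upb1-1 replicates differed widely, with replicate 1 the higher, but both stayed above all OX-labelled and Col-0 arrays, the latter at 64.8 and 38.8. PER56 gave 267 and 223 against 19.1 and 2.74 (change -3.34), and PER66 gave 229 and 307 against 24.4 and 41.8 (change -2.54). Neither pair of groups overlapped, and both changes passed, with adjusted p = 1.43e-05 and 4.32e-06. PER69 and PER24 were among the bright members. PER69 went from 4330.1 and 3999 to 779 and 1145, a change of -2.12 (adjusted p = 1.56e-05), and PER24 from 2449 and 3846 to 698 and 834, a change of -1.99 (adjusted p = 5.91e-05). Their OX-labelled signals were also below those of Col-0, which were 1508 and 2168 and 1146 and 2027. PER9, with 133 and 87.7 against 22.7 and 14.4, and PER30, with 1178 and 1592 against 522 and 624, fell by 1.86 and 1.24 log2 units.

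UPB1 is known to bind the regulatory regions of PER39, PER40 and PER57. PER57 fell clearly: its signal was 5776 and 7546 in upb1-1 and 745 and 919 in the OX-labelled line, with Col-0 at 2732 and 4159 between them. The change was -2.97 log2 units (SE 0.21, adjusted p = 2.83e-07), and the upb1-1 mean was 8.01 times the OX-labelled mean. PER39 gave 3428 and 4372 against 2399 and 2234, with Col-0 at 2169.7 and 2509. The OX-labelled arrays were below upb1-1 and within the range of Col-0. The change of -0.74 passed (adjusted p = 0.0353) but did not without upb1-1 replicate 2 (-0.56, adjusted p = 0.215), OX-labelled replicate 1 (-0.79, 0.0968) or OX-labelled replicate 2 (-0.69, 0.141). PER40 gave 327 and 439 against 213 and 223; the groups did not overlap, and the change of -0.76 did not pass (adjusted p = 0.0613).

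The calls of PER5, PER21 and PER17 were lost when single arrays were left out. PER5 (-1.49, adjusted p = 0.025) and PER21 (-0.93, adjusted p = 0.0428) did not pass whichever of the 4 arrays was left out, the adjusted p-values then lying at 0.0546 to 0.119 for PER5 and 0.0774 to 0.214 for PER21. PER17 (-0.66, adjusted p = 0.0334) did not pass without upb1-1 replicate 2 (-0.53, 0.203) or OX-labelled replicate 1 (-0.52, 0.174). Some of the brightest peroxidases did not pass. PER45 gave 9838 and 9475 in upb1-1 and 5242 and 7898 in the OX-labelled line (change -0.58, adjusted p = 0.109), and PER27 gave 9188 and 10180.0 against 4959 and 6665 (change -0.75, adjusted p = 0.377). Both genes were lower on the OX-labelled arrays than on the upb1-1 arrays, without overlap. Of the members with a positive change, PER63 came closest to the threshold, with 214 and 190.3 against 294 and 292 (0.51, adjusted p = 0.0793).

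**Figure D2:**
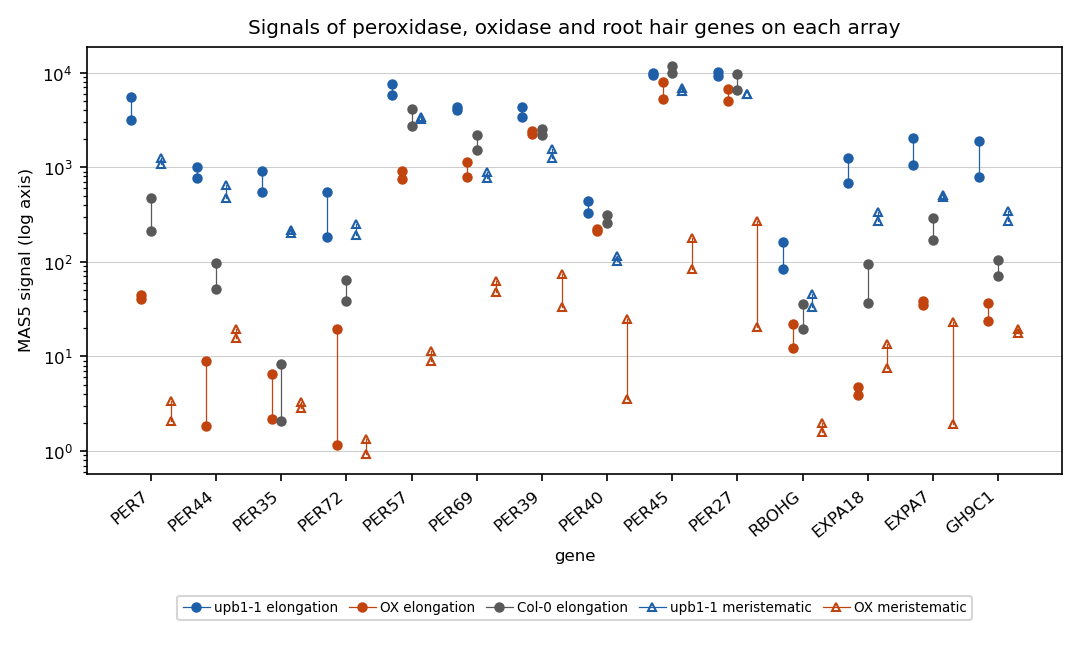
MAS5 signal on each array (log axis) of 10 peroxidase genes, the NADPH oxidase gene RBOHG and the root hair genes EXPA18, EXPA7 and GH9C1, with circles for the elongation and triangles for the meristematic zone. A line joins the 2 replicates of a group; for every gene shown, both OX-labelled elongation arrays lie below both upb1-1 elongation arrays.

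NADPH oxidases of the RBOH family pass electrons across the plasma membrane to oxygen, which becomes superoxide. Of 10 genes in the family 3 were tested, and all 3 fell in the OX-labelled line (12.6% of all tested probe sets did), 1 of them also without upb1-1 replicate 2. RBOHG (AT4G25090) gave 84.1 and 164 in upb1-1, 12.4 and 22 in the OX-labelled line and 19.7 and 35.6 in Col-0, so that upb1-1 stood above both. Its change was -2.03 log2 units (SE 0.32, adjusted p = 0.000419). RBOHE (AT1G19230) gave 80.3 and 172 against 38 and 28.5 (-1.46, adjusted p = 0.00381), and RBOHI (AT4G11230) gave 31.9 and 71.9 against 2.32 and 21.5 (-1.31, adjusted p = 0.0227). The groups did not overlap for either gene, but replicate 2 of upb1-1 was the higher in both. Without it neither passed (-0.97, adjusted p = 0.0682 for RBOHE and -0.87, adjusted p = 0.239 for RBOHI), and RBOHI also did not pass without OX-labelled replicate 1 (-0.79, adjusted p = 0.214). All 3 tested members were dim, and none passed a stricter filter on signal at the 60th percentile. With only the 4 arrays compared, 2 of the 3 fell. The members of the family with the best known roles in root hairs and defence had no named probe set here.

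Genes that handle peroxides and oxidised molecules inside the cell did not move one way. Among 7 glutathione S-transferases tested, 3 fell and 2 rose (12.6% and 11.6% of all tested probe sets did). GSTU28 went from 748 and 2024 in upb1-1 to 136 and 186 in the OX-labelled line (-2.83, adjusted p = 5.62e-05), with Col-0 at 216 and 259. GSTU22 went from 2238 and 1922 to 3574 and 4971 (1.02, adjusted p = 0.0013) and GSTU25 from 696 and 576 to 1164 and 1260.5 (0.92, adjusted p = 0.000914). The groups did not overlap for these 3 genes. GSTU27 fell by 0.83 (adjusted p = 0.00422) and GSTU26 by 0.76 (adjusted p = 0.0245), the latter without passing when upb1-1 replicate 2 (-0.56, 0.179) or either OX-labelled array (-0.75, 0.0959 and -0.76, 0.0872) was left out. Of the chloroplast ascorbate peroxidases, which remove hydrogen peroxide, TAPX was at 38.5 and 52.8 and 5.42 and 25.7 (-1.04, adjusted p = 0.028), and SAPX was at 1657 and 1496 and 1472 and 1245 (-0.22, adjusted p = 0.375). The TAPX call did not hold without upb1-1 replicate 2 (-0.87, 0.174) or OX-labelled replicate 1 (-0.56, 0.261). Among 4 methionine sulfoxide reductases B, which repair oxidised methionine, MSRB5 (3095 and 3182 against 1976 and 1715, -0.76, adjusted p = 0.00786) and MSRB6 (147 and 157 against 74.9 and 68.8, -0.94, adjusted p = 0.0178) fell. Neither passed without OX-labelled replicate 2 (-0.66, 0.0628 and -0.89, 0.0835), nor did MSRB6 without upb1-1 replicate 2 (-0.89, 0.0948) or OX-labelled replicate 1 (-0.99, 0.0609). CuAO1, a copper amine oxidase that releases hydrogen peroxide from polyamines, rose: it gave 1201 and 645 in upb1-1, 1823 and 2043 in the OX-labelled line and 1899.9 and 1425 in Col-0 (1.12, adjusted p = 0.00373). Without upb1-1 replicate 2 its change was 0.68 (adjusted p = 0.0417).

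Genes of root hair cells had the lowest median change of all lists examined. The list of 24 genes had 5 named probe sets, and 4 members were tested. All 4 were lower in the OX-labelled line (12.6% of all tested probe sets were). Their median change was -5.11 log2 units, and they remained lower with any 1 array left out. EXPA7 and EXPA18 encode expansins that loosen the walls of hair-forming cells. EXPA18 gave 682 and 1240.4 in upb1-1, 3.91 and 4.78 in the OX-labelled line and 36.9 and 94.4 in Col-0, a change of -5.52 (SE 0.32, adjusted p = 5.38e-08). EXPA7 gave 1059 and 2031, 35.3 and 38.3 and 169 and 289, a change of -4.81 (adjusted p = 3.29e-07). GH9C1, an endoglucanase of root hairs, gave 784 and 1899.9, 24 and 36.6 and 70.4 and 105, a change of -4.75 (adjusted p = 2.00e-07). For each of these genes upb1-1 was the highest group, Col-0 was between, and the OX-labelled line was the lowest, without overlap. PER44, described above, is the remaining member. The summed signal of the 4 genes was 3304 and 6176 in upb1-1, 72.2 and 81.6 in the OX-labelled line, and 327 and 587 in Col-0. In the meristematic zone all 4 also fell (24.5% of all tested probe sets did there). The sum there was 1488 and 1834 in upb1-1, 63.8 and 54.5 in the OX-labelled line, and 1919 and 1791 in Col-0. In Col-0 these genes were thus higher in the meristematic than in the elongation zone. How many hair-forming cells each sample held was not measured.

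Several genes whose roles are not annotated in the tables used here fell by similar amounts. AT1G19900 gave 1224 and 2149.9 in upb1-1 and 25.5 and 38.5 in the OX-labelled line (-5.11, adjusted p = 1.63e-08), with Col-0 at 168 and 247. AT5G04960 gave 479.6 and 728 against 17.7 and 1.67 (-4.64), AT3G07070 gave 311 and 698 against 4.70 and 14.4 (-4.27), and AT5G01210 gave 1449 and 2259 against 60.4 and 115 (-4.19). The groups did not overlap for any of them. AT3G23090, which is WDL3 of a family of microtubule-associated proteins, gave 250.4 and 655 against 3.00 and 12.8 (-4.18, adjusted p = 9.64e-07). AT4G16563, AT2G34810 and AT2G41970 fell by 4.08, 3.92 and 3.84 log2 units. All of these falls passed with any 1 array left out.

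Among falls of genes with a symbol, SP1L4, a relative of the microtubule protein SPIRAL1, went from 975 and 1755 to 169.8 and 169 (-2.84, adjusted p = 2.59e-06). COR47, a dehydrin known from cold and drought, was bright in both lines and went from 4519 and 5237 to 955 and 958 (-2.33, adjusted p = 2.37e-06). The COR47 replicates were close to each other, whereas upb1-1 replicate 2 was well above replicate 1 for SP1L4. A pair of transcription factor genes also fell. The AP2-type factor TINY (tny) went from 418 and 453 to 57.9 and 78.2 (-2.44, adjusted p = 1.17e-06), and the trihelix factor GT2 went from 437 and 752 to 85.8 and 113 (-2.37, adjusted p = 1.33e-05). Col-0 lay between the lines for both, at 149.7 and 148 and 235 and 301. PDC2, a pyruvate decarboxylase, gave 160.2 and 199 against 40 and 7.29 (-2.43, adjusted p = 0.00183), and the receptor kinase gene B120 gave 194 and 338 against 32.8 and 44.5 (-2.33, adjusted p = 0.000128). MT1C, a metallothionein, had replicates far apart: 1311 and 117 in upb1-1 against 24.9 and 11.4 in the OX-labelled line (-3.65, SE 0.73, adjusted p = 0.00262). Replicate 1 of upb1-1 alone was high, and without it the change was -1.99 (adjusted p = 0.00633).

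Further families that modify the wall were examined next. Of 6 xyloglucan endotransglucosylase/hydrolases tested, which cut and rejoin xyloglucan, 4 fell and none rose, with a median change of -1.10 (12.6% of all tested probe sets fell). The median was -0.65 without upb1-1 replicate 2 and -1.54 without upb1-1 replicate 1. XTH18 went from 889.6 and 1319 to 286 and 268 (-1.91, adjusted p = 0.000105), XTH33 from 102 and 173 to 25.2 and 40.9 (-1.63, adjusted p = 0.00128) and XTH21 from 872 and 1728 to 478 and 409.6 (-1.44, adjusted p = 0.000985). EXGT-A3 was at 761 and 1341 and 659 and 536 (-0.75, adjusted p = 0.0433), a call that did not hold without upb1-1 replicate 2 (-0.35, 0.406), OX-labelled replicate 1 (-0.90, 0.0748) or OX-labelled replicate 2 (-0.61, 0.213). XTH21 fell by less without upb1-1 replicate 2 (-0.95, adjusted p = 0.00873), and EXGT-A3 by more without upb1-1 replicate 1 (-1.15). XTH19, the brightest member named here, did not pass (-0.39, adjusted p = 0.149). Of 11 expansins, 4 fell and 1 rose (12.6% and 11.6% of all did), and 6 did not pass. Beside EXPA7 and EXPA18 these falls were EXPA8 (259.7 and 599 against 126 and 155, -1.40, adjusted p = 0.00616) and EXPB1 (602 and 626 against 337 and 220.3, -1.13, adjusted p = 0.00422). EXPA15 rose, from 262 and 171 to 825 and 366 (1.32, adjusted p = 0.00446). These 3 calls depended on single arrays: EXPA8 did not pass without upb1-1 replicate 2 (-0.82, 0.0998) or OX-labelled replicate 1 (-1.26, 0.055), EXPB1 without OX-labelled replicate 2 (-0.84, 0.0587), and EXPA15 without upb1-1 replicate 2 (1.03, 0.0532) or OX-labelled replicate 1 (0.75, 0.0611).

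Proteins of the TRICHOME BIREFRINGENCE-LIKE (TBL) family attach acetyl groups to wall polysaccharides, and 7 of 19 tested members fell while 3 rose (12.6% and 11.6% of all tested probe sets did). There were 5 falls and 1 rise without upb1-1 replicate 2 and 7 falls and 1 rise without OX-labelled replicate 2. The calls of TBL15, TBL18, TBL19 and TBL37 were lost when single arrays were left out. TBL41 went from 439.8 and 736 to 43.6 and 36 (-3.39, adjusted p = 2.27e-07), TBL38 from 1263 and 2399 to 146 and 216 (-3.18, adjusted p = 1.02e-05) and TBL30 from 358 and 402 to 67.9 and 58.9 (-2.32, adjusted p = 1.56e-05). All OX-labelled arrays were below all upb1-1 and Col-0 arrays for these genes. TBL35 moved the other way, from 606 and 548 to 1045 and 1104 (0.88, adjusted p = 0.00174). RALF-like genes encode small secreted peptides that alkalinise the apoplast, and 4 of 7 fell and 1 rose (12.6% and 11.6% of all did). RALFL22 went from 700.0 and 1021 to 242 and 172 (-1.97, adjusted p = 5.74e-05) and RALFL32 from 258 and 293 to 69.4 and 75.8 (-1.72, adjusted p = 0.000372). RALFL31 rose from 28.6 and 28.6 to 67.6 and 89.2 (1.07, adjusted p = 0.00513), but did not pass without OX-labelled replicate 2 (0.91, 0.0515). HCT, an enzyme of monolignol synthesis, went from 1043 and 1527 to 512 and 449 (-1.37, adjusted p = 0.000373). Here Col-0, at 500.3 and 573, was at the level of the OX-labelled line. GSO1, a receptor kinase that helps to complete the Casparian strip of the endodermis, went from 342 and 475 to 129 and 98.7 (-1.70, adjusted p = 9.29e-05).

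**Figure D3:**
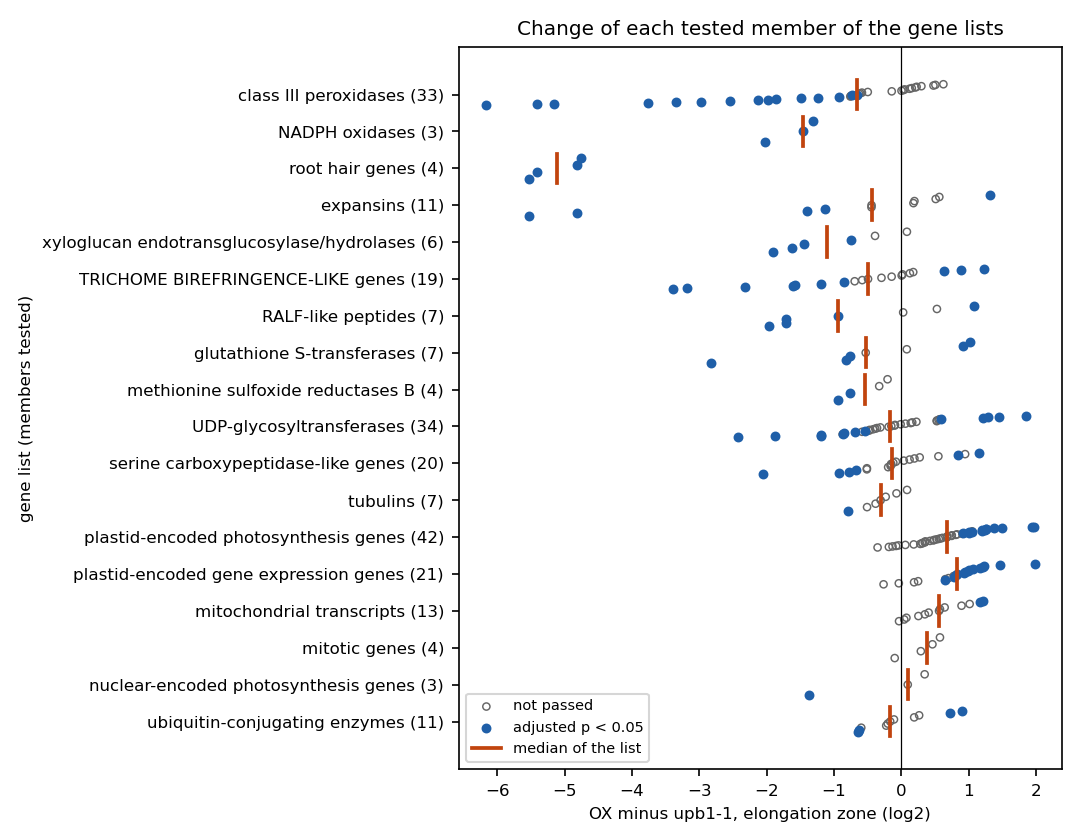
Change between the OX-labelled and the upb1-1 elongation zone (log2) of each tested member of 18 gene lists, filled where it passed at an adjusted p below 0.05, with the median of each list as a bar and the number tested in brackets. Peroxidase and root hair genes reach below -5, and plastid-encoded genes lie mostly to the right of 0.

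Rises were smaller than the largest falls. The largest rise among probe sets with 1 named gene was AT5G05250, at 24.7 and 12.2 in upb1-1 and 187 and 358 in the OX-labelled line (3.03, SE 0.47, adjusted p = 0.000441), with Col-0 spread between 119 and 28. AT1G76470 went from 75.1 and 37.2 to 309 and 417 (2.43), AT2G17080 from 110.5 and 51.7 to 420.0 and 505 (2.37) and AT4G27652 from 53.1 and 57.2 to 236 and 382 (2.16). The OX-labelled arrays were above all upb1-1 and Col-0 arrays for these 3 loci, for which the tables used here give no role. For AT1G73620 (938 and 194 against 2185 and 2393), AT5G51500 (915 and 360.3 against 2583 and 2400.1) and AT2G43610 (1216 and 308 against 2429 and 2841), upb1-1 replicate 2 was well below replicate 1. Their changes were 2.36, 2.08 and 2.06. Without upb1-1 replicate 2 they were 1.27, 1.43 and 1.10, with adjusted p = 0.00208, 8.23e-05 and 0.00116.

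Among rises of genes with a symbol, EXO, a wall-associated protein gene known to respond to brassinosteroids, went from 145 and 126 to 394 and 598 (1.73, adjusted p = 0.00024). GH9C3, an endoglucanase of the same class as GH9C1, went from 122 and 65 to 352 and 248 (1.56, adjusted p = 0.000424), opposite in direction to GH9C1. BIN4, a component of the topoisomerase complex needed for endoreduplication, went from 73.7 and 35.8 to 212 and 218 (1.76, adjusted p = 0.00013), and Col-0 at 76.2 and 56.6 resembled upb1-1. The calmodulin-like gene CML23 went from 37.9 and 28.1 to 180.0 and 144 (1.86, adjusted p = 0.000266). STZ, a zinc finger factor of stress responses, went from 17.2 and 18.6 to 83.1 and 108 (1.71, adjusted p = 0.000479), and PUB23, a ubiquitin ligase that dampens immune signalling, from 165 and 145 to 368 and 383 (1.20, adjusted p = 0.000935). For EXO, CML23, STZ and PUB23 the OX-labelled arrays were above upb1-1 and Col-0 alike. CPI1, an enzyme of sterol synthesis, went from 856 and 564 to 1399.6 and 1926 (1.22, adjusted p = 0.00165). NRPB6B, a subunit of RNA polymerases, went from 319 and 242 to 595 and 654 (1.12, adjusted p = 0.00432), within the range of Col-0 at 713 and 459.7. TRM82 (266 and 149 against 561 and 422, 1.22) and UPP (241 and 142 against 366 and 521, 1.17) also rose.

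Among genes of the plastid genome, 27 of 63 tested rose in the OX-labelled elongation zone (11.6% of all tested probe sets did), and 36 did not pass. Of 42 tested genes for photosystem subunits, the cytochrome complex, the ATP synthase, the NDH complex and Rubisco, 13 rose and none fell, with a median change of 0.68 log2 units. Of 21 tested genes for ribosomal proteins, RNA polymerase and other parts of plastid gene expression, 14 rose and none fell, with a median of 0.83. Leaving out 1 array at a time gave 11 to 14 rises in the first list and 8 to 15 in the second, and 1 fall in the second without OX-labelled replicate 2. The second count was 8 without that array and 10 without upb1-1 replicate 2. These lists were added after the tables had been seen, and genes that share a plastid transcript unit are not independent of each other.

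The photosystem I gene psaI gave 166 and 138 in upb1-1, 624 and 624 in the OX-labelled line and 187 and 174 in Col-0. Its change was 1.94 (SE 0.18, adjusted p = 3.35e-06), and Col-0 stayed close to upb1-1. The polymerase subunit gene rpoC1 gave 35.9 and 22.6 against 153 and 168 (1.98, adjusted p = 5.38e-05), with Col-0 between at 107 and 71.7. atpA, for a subunit of the ATP synthase, gave 184 and 170.1 against 596 and 466 (1.49, adjusted p = 0.000283), and the maturase gene matK gave 532 and 507 against 1293 and 1641 (1.46, adjusted p = 5.74e-05). The OX-labelled arrays were above upb1-1 and Col-0 for both. rbcL, for the large subunit of Rubisco, gave 108 and 90.4 against 244 and 323 (1.37, adjusted p = 0.00173), and psbI, for a small subunit of photosystem II, gave 113 and 114 against 296 and 294 (1.26, adjusted p = 0.000836). Not all members moved: psbJ was at 138 and 123 and 95.7 and 101 (-0.35, adjusted p = 0.32), and rpoA at 2113 and 1829.7 and 975 and 2736, the OX-labelled replicates lying on either side of upb1-1. Among nuclear genes of light harvesting, none of 3 tested rose and 1 fell (11.6% and 12.6% of all tested probe sets did). The fall was that of LHCB4.1, from 36.4 and 49 to 12.3 and 1.88 (-1.38, adjusted p = 0.00232). All 3 were dim, and none passed a stricter filter on signal at the 60th percentile, so they allow no contrast with the plastid-encoded genes. Of 13 mitochondrial transcripts, 2 rose and none fell, a share near the 11.6% of all tested probe sets, with a median of 0.56. The count of rises was 1 without OX-labelled replicate 2 and 4 without upb1-1 replicate 2. They were cox1, from 131 and 146 to 275 and 399 (1.17, adjusted p = 0.00104), and nad4, from 278 and 239 to 554 and 685 (1.21, adjusted p = 0.0177). The nad4 call did not hold without upb1-1 replicate 2 (1.11, 0.0982), OX-labelled replicate 1 (1.36, 0.0513) or OX-labelled replicate 2 (1.06, 0.113).

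**Figure D4:**
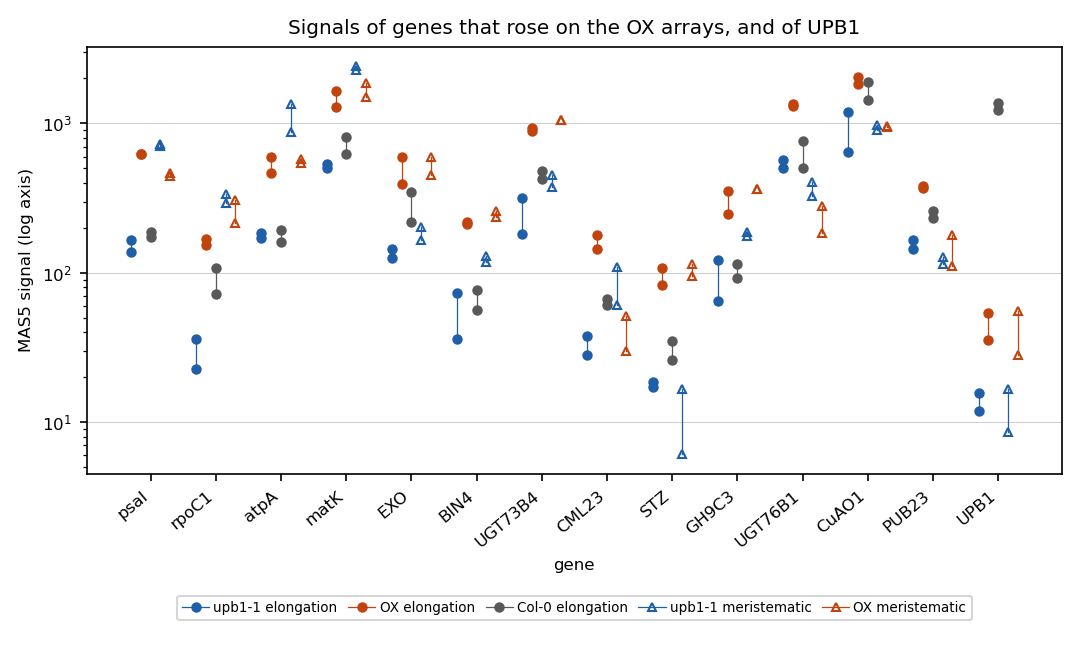
MAS5 signal on each array (log axis) of 4 plastid-encoded genes, 9 nuclear genes that rose, and UPB1, with circles for the elongation and triangles for the meristematic zone and a line between the 2 replicates of a group. Both OX-labelled elongation arrays lie above both upb1-1 elongation arrays for every gene shown, whereas UPB1 is highest on the Col-0 arrays.

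Genes that mark dividing cells did not pass in this zone. None of 4 mitotic genes passed (24.2% of all tested probe sets did), with a median change of 0.38. AUR1 had the largest, 0.57 (adjusted p = 0.0801). The replication genes PRL (305 and 209.6 against 377 and 361, 0.52, adjusted p = 0.0566) and ICU2 (0.29, adjusted p = 0.39) did not pass either. In the meristematic zone all 4 mitotic genes were higher in the OX-labelled line (27.5% of all tested probe sets were), with a median of 0.98. BBM, a factor of the stem cell niche, was near the bottom of the scale, at 15.1 and 17.4 and 1.47 and 3.61 (-0.80, adjusted p = 0.0407), and it did not pass whichever of the 4 arrays was left out (adjusted p = 0.0581 to 0.167). AT3G13610, which is F6'H1, the enzyme that begins coumarin synthesis under iron deficiency, went from 75.5 and 153 to 20.3 and 42.8 (-1.43, adjusted p = 0.00766), but did not pass without upb1-1 replicate 2 (-0.98, 0.112) or OX-labelled replicate 1 (-1.08, 0.0853). No member of the lists for root cap, xylem, phloem and suberised endodermis had a named probe set that was tested.

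The same contrast in the meristematic zone used 4 other arrays and gave 8226 changed probe sets (52.0%), of which 4349 (27.5%) were higher and 3877 (24.5%) lower. Of the 1830 probe sets that rose in the elongation zone, 975 also rose in the meristematic zone, which is 53.3% of the first list and 22.4% of the second, while 221 fell there. Of the 1998 that fell, 1243 also fell in the meristematic zone, 62.2% of the first list and 32.1% of the second, and 98 rose there. The difference between the zones was tested directly and passed for 4151 probe sets (26.2%), of which 2346 (14.8%) were more positive and 1805 (11.4%) more negative in the elongation zone. The 3′ to 5′ ratio of the control probe sets was 4.17 log2 units in the OX-labelled and 2.04 in the upb1-1 meristematic samples, against 3.97 and 4.04 in the elongation zone. Its part in the zone differences was not tested.

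PER7 changed about equally in both zones, with -6.17 in the elongation and -5.99 in the meristematic zone, and the zone difference of -0.18 did not pass (adjusted p = 0.793). EXPA18, PER44 and PER35 were near the bottom of the signal scale on the OX-labelled arrays of both zones, so the sizes of their falls cannot be compared between the zones. PER57 changed by -7.0 in the meristematic zone, from 3247 and 3412 in upb1-1 to 11.4 and 8.99 in the OX-labelled line, and its zone difference was 4.03 (adjusted p = 9.85e-07). PER39 fell there from 1240.0 and 1543 to 73.6 and 33, with a zone difference of 3.66 (adjusted p = 6.02e-06), and PER40 from 103 and 116 to 3.52 and 24.6, with 1.40 (adjusted p = 0.0181). All 3 UPB1-linked peroxidases thus had a weaker difference between the lines in the elongation zone. In the whole family 21 of the 33 tested members fell and 2 rose in the meristematic zone (24.5% and 27.5% of all tested probe sets did). A zone difference passed as more positive in the elongation zone in 11 members and as more negative in 3 (14.8% and 11.4% of all).

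The plastid-encoded genes differed in sign between the zones. In the meristematic zone 27 of the 42 photosynthesis genes fell and 3 rose (24.5% and 27.5% of all tested probe sets did), with a median of -0.89. The zone difference was more positive in the elongation zone in 29 of the 42 and more negative in 1 (14.8% and 11.4% of all). For the 21 genes of plastid gene expression the counts were 10 falls and 2 rises in the meristematic zone, with a median of -0.52. Their zone difference was more positive in the elongation zone in 15. The summed signal of the 42 genes was 8502 and 9222 in upb1-1, 13019 and 14259 in the OX-labelled line and 11868 and 9130.2 in Col-0 in the elongation zone. In the meristematic zone it was 23135 and 20352 in upb1-1, 15475 and 15142 in the OX-labelled line and 19558 and 22944 in Col-0. The summed signal of the OX-labelled line was therefore the highest of the 3 genotypes in the elongation zone and the lowest in the meristematic zone. The 3′ to 5′ ratio of control probe sets also differed among the meristematic samples. It was 4.17 log2 units in the OX-labelled line, 2.04 in upb1-1 and 2.22 in Col-0, and its part in the change of sign was not tested. The psaI signal in the meristematic zone was 727 and 709 in upb1-1 and 467 and 445 in the OX-labelled line, with a zone difference of 2.57 (adjusted p = 1.05e-05).

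**Figure D5:**
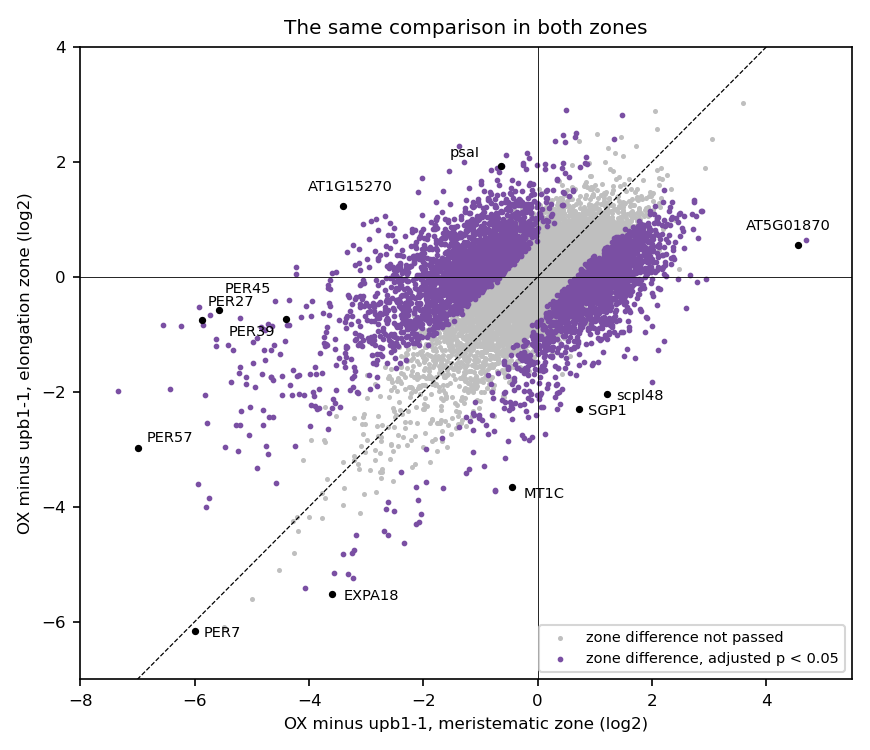
Change between the OX-labelled and the upb1-1 line in the meristematic zone (horizontal axis, log2) and in the elongation zone (vertical axis, log2) for each tested probe set, coloured where the difference between the zones passed at an adjusted p below 0.05, with equal changes on the dashed line. PER7 lies on the line at about equal falls. The changes of PER57, PER27, PER45 and PER39 were more negative in the meristematic zone, and PER27 and PER45 did not pass in the elongation zone. EXPA18 and MT1C lie below the line, but EXPA18 was near the bottom of the signal scale on the OX-labelled arrays of both zones.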

How the data were processed

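The deposited values are linear probe set signals (intensity) made by the authors. MAS5 is the tool named, without a version, per the submitters' processing notes. A trimmed mean (2% at each end) of about 250.03 on every array shows their scaling. No detection calls were used. Per the labels' protocols, RNA came from razor-cut root zones and was amplified in a two-cycle procedure. Tests used log2(signal + 16) without rescaling. Probe sets below the 40th percentile of an array on all but 1 or on all of the 12 arrays were left out. limma 3.58.1 in R 4.3.3 fitted 6 group means over all 12 arrays, with a trend of variance on mean signal (prior degrees of freedom 8.75, two-sided tests). In each contrast, Benjamini-Hochberg adjustment covered all 15834 probe sets tested, with a threshold of 0.05. The number of arrays limits the precision, and with 2 replicates the p-values rest on the spread shared by all groups. The script was tested on simulated data.

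Names were looked up in the platform annotation and in a table of TAIR10.1 genes, of which no coordinates were used. This gave 1 gene for 8906 tested probe sets (56.2%), several for 328, and no name for 6600. A gene with several probe sets was represented by its brightest on average. The genes named were UPB1, the largest changes, up to 15 in each direction, among probe sets that passed, had 1 named gene, did not overlap between groups and had a brighter group mean above the median, from each list up to 4 members by p-value, PER39, PER40 and PER57, and up to 6 genes a direction with the largest zone difference. Further list members and genes with a symbol were named after their values were seen. Members and lists were chosen with earlier results of these data known, and 13 lists were added after the tables were seen; 12 of the other 29 had no tested member. Same-numbered arrays did not deviate together (r between -0.01 and 0.03), so the numbers were not used to pair samples. The alternatives tried were other scalings, pseudocounts, filters and sets of arrays, a fit without the variance trend, a replicate block, and leaving out each array.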

Additional observations from a re-analysis of the deposited data

Results flagged for a closer look

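The difference between the OX-labelled and the upb1-1 line was itself different in the 2 zones for 12 genes named by the size of that difference, each past the threshold of the limma interaction test. In 6 of them the change was more positive in the elongation zone, and all 6 were lower in the OX-labelled line in the meristematic zone. AT1G04040 had a zone difference of 5.41 log2 units (adjusted p = 5.29e-06), from -0.52 in the elongation and -5.93 in the meristematic zone. AT5G44020 had 5.37, from -1.98 and -7.35, and AT1G62480 had 5.06, from -0.67 and -5.73. The peroxidase genes PER27 and PER45 had 5.12 and 4.99 (adjusted p = 0.000499 and 9.85e-07). On the OX-labelled meristematic arrays PER27 was at 273 and 20.6 and PER45 at 179 and 84.4, against 5944 and 6009.9 and 6899 and 6384 on the upb1-1 arrays. AT1G15270 had 4.65 and changed sign, from -3.41 in the meristematic to 1.24 in the elongation zone.

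In the other 6 the change was more negative in the elongation zone. The carboxypeptidase-like gene scpl48 had a zone difference of -3.27 (adjusted p = 1.87e-06): it fell from 465 and 616 to 111 and 124 in the elongation zone and went from 399 and 412 to 947 and 985 in the meristematic zone. SGP1, for a small GTP-binding protein, had -3.03 (adjusted p = 7.64e-05), with signals of 215 and 427 against 40.7 and 58.1 in the elongation zone. AT5G02890 had -2.98, from -3.73 and -0.74, and MT1C had -3.21 (adjusted p = 0.0335), with upb1-1 replicates at 1311 and 117. AT5G01870 had -3.99, from 0.56 in the elongation and 4.55 in the meristematic zone. AT5G59170 had -3.37 (adjusted p = 0.0292), and its OX-labelled elongation replicates were at 13 and 293, on either side of upb1-1. The 3′ to 5′ ratio of control probe sets differed between the lines in the meristematic zone, at 4.17 against 2.04 log2 units, and its part in these differences was not tested.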

How the results depend on the processing

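The counts of rises and falls kept within 1.5 times of 1830 and 1998 under both other scalings, both other pseudocounts, both other filters and the fit without a variance trend. Fits to subsets of the groups gave 618 rises and 1248 falls with only the 4 arrays compared, and 809 rises with only the 6 elongation zone arrays. Leaving out 1 array at a time gave 706 to 2964 rises, 1052 to 2357 falls and 3279 to 4641 zone differences. With the replicate block, although same-numbered arrays did not deviate together, the counts were 1945, 2034 and 4246. The UPB1 difference was not past the threshold with only the 4 arrays compared (1.01, adjusted p = 0.0708), and leaving out 1 array gave 0.79 to 1.23. Changes of at least 2 log2 units depended on the pseudocount, with 116 rises and 494 falls at a pseudocount of 1 and 5 and 117 at 64, against 25 and 274; they also numbered 84 and 417 without upb1-1 replicate 1. No called gene that was followed turned its direction under any of these settings. Some list medians near 0 did, such as that of the Aux/IAA genes (0.17, and -0.30 without OX-labelled replicate 2). Of 156 called genes followed, 98 were lost under none of the settings in which they were tested. The other 58 were lost under at least 1, most often without upb1-1 replicate 2. Under the stricter filter at the 60th percentile only 142 of the 156 were tested, and none of these was lost. Median centring gave 2104 rises and 1854 falls. Dim genes are limited by the signal floor, and the absence of detection calls leaves their lowest signals uncertain.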

Other observations

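Other gene families had calls in both directions in the elongation zone. Their counts stand beside the shares over all tested probe sets and are not read as results about the families. Of 34 tested UDP-glycosyltransferases, which attach sugars to small molecules, 5 rose and 8 fell (11.6% and 12.6% of all tested probe sets did), with a median change of -0.17 log2 units. Without upb1-1 replicate 2 there were 3 rises and 3 falls. UGT73B4 went from 316 and 182 in upb1-1 to 925 and 890.3 in the OX-labelled line (1.85, adjusted p = 3.09e-05), and UGT76B1, which modifies compounds of immune signalling, from 573 and 499.9 to 1312 and 1357 (1.29, adjusted p = 0.00104). The OX-labelled arrays were above upb1-1 and Col-0 for both. UGT72E3, which glycosylates lignin precursors, went the other way, from 132 and 239 to 22.5 and 18.2 (-2.42, adjusted p = 5.35e-05), and UGT71C1 from 1339 and 1824 to 747 and 609.8 (-1.19, adjusted p = 0.00128). Of 20 serine carboxypeptidase-like genes, 2 rose and 4 fell (11.6% and 12.6% of all tested probe sets did). With only the 4 arrays compared, none rose and 1 fell. Without upb1-1 replicate 2 or OX-labelled replicate 1 there were 0 rises and 2 falls, without OX-labelled replicate 2 there were 1 and 2, and without upb1-1 replicate 1 there were 4 and 6. The gene scpl20 went from 79.5 and 87.2 to 42.7 and 30.9 (-0.92, adjusted p = 0.00407).

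Calls in the next families are set against the 24.2% of all tested probe sets that passed in either direction. Of 8 SWEET sugar transporters, SWEET17, which carries fructose across the vacuolar membrane, fell from 422 and 421 to 183 and 149.7 (-1.27, adjusted p = 0.000777), and the other 7 did not pass. Of 7 tubulins, TUA1 fell (-0.79, adjusted p = 0.0431), a call that did not hold without upb1-1 replicate 2 (-0.66, 0.22) or either OX-labelled array (0.17 and 0.0882). Of 7 actin-binding NETWORKED genes, NET1A rose (0.88, adjusted p = 0.00469) and NET1B fell (-0.97, adjusted p = 0.0102). NET1A did not pass without upb1-1 replicate 2 (0.62, 0.0565), nor NET1B without that array (-0.72, 0.111) or OX-labelled replicate 1 (-0.62, 0.12). Of 11 ubiquitin-conjugating enzymes, 2 rose and 2 fell, all by less than 1 log2 unit. None of them passed without OX-labelled replicate 1, where UBC22 was at -0.57 (0.0631), UBC32 at -0.62 (0.0621), UBC20 at 0.80 (0.144) and UBC37 at 0.81 (0.0988). UBC32 and UBC20 also did not pass without upb1-1 replicate 2, UBC37 without upb1-1 replicate 1, and these 3 without OX-labelled replicate 2. None of 5 Aux/IAA genes, which repress auxin responses, passed, and IAA18 came closest (115 and 103 against 53.6 and 66.6, -0.72, adjusted p = 0.0566).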
